A study of Mus musculus with 5 samples.

Results

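The 9 genes described here encode acute phase proteins, an alarmin, complement components, antimicrobial and chitinase-like secretory proteins and a cytokine receptor of the mouse lung. They are Lcn2, Lrg1, Saa3, Il33, C3, Cfb, Chil1, Slpi and Il1r1, taken as a named list of 9 from the 31053 genes of the count matrices, and all 9 were found there by symbol. The cells came from adult C57BL/6 mice in which doxycycline switches on Cre in cells that use the human surfactant protein C promoter (SP-C rtTA with TetO-Cre). Where both Itgb1 alleles are floxed, this removes β1 integrin from alveolar type 2 cells (AT2 cells, which make surfactant and renew the alveolar lining), giving the mice labelled Itgb1 iKO and called β1 AT2-KO here. Floxed littermates that lacked rtTA and Cre (Itgb1 fl/fl, here β1 fl/fl) were the controls, and both genotypes were given doxycycline for 4 weeks. At 3 months of age, mice received a single intratracheal dose of lipopolysaccharide (LPS, a bacterial wall component that injures the lung) or phosphate-buffered saline (PBS).

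There were 5 droplet libraries, made from β1 fl/fl lungs 7 days after LPS, β1 AT2-KO lungs 7 days after LPS, β1 AT2-KO lungs 7 days after PBS, and β1 fl/fl and β1 AT2-KO lungs 21 days after LPS. β1 fl/fl lungs without LPS were not analysed here, so LPS can be set against PBS only in the knockout. All cells were sorted as viable and negative for CD45 and Ter119, and the day 21 lungs were also enriched for EPCAM-positive cells. Lungs of several mice were pooled into each library, and 3 hashtag antibodies were in use in each. Each hashtag is taken as a mouse here, which is an assumption, since the labels do not number the mice and a pool could hold more mice than hashtags. All mice of a condition shared a library, so a library effect cannot be told apart from the condition.

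As background, acute phase proteins are those that cells, above all of the liver but also of barrier tissues, make in larger amounts in response to IL-1, IL-6 and bacterial products. Lipocalin 2 (Lcn2) binds bacterial siderophores and so withholds iron, serum amyloid A3 (Saa3) is an inducible apolipoprotein, and leucine-rich alpha-2 glycoprotein (Lrg1) modulates TGF-β signalling in vessels. IL-33 is kept in the nucleus and acts as an alarmin when damaged cells release it. C3 is the component on which all complement pathways converge and factor B (Cfb) is the protease of the alternative pathway. Chil1 encodes a chitinase-like lectin, Slpi an inhibitor of neutrophil elastase, and Il1r1 the receptor of IL-1. In the lung, AT2 cells and fibroblasts are both sources of innate defence proteins.

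The libraries held 39503 barcodes, of which 29500 had at least 700 genes and 0.1% to 15% mitochondrial UMIs (unique molecular identifiers, each counting 1 captured RNA molecule), with a median of 2219 to 5330 UMIs per cell. By the gates, 1916 cells were AT2 cells (26 to 1240 per library), 21327 were endothelial (879 to 7976) and 1547 were mesenchymal (103 to 553). Levels are given as CPM, the UMIs of a gene per 1000000 UMIs of the cells of a class, in a mouse or in a library. Only mice with at least 10 cells of a class were compared, with edgeR's quasi-likelihood test over all genes and a threshold of 0.05 on the Benjamini-Hochberg adjusted p. In PBS this left 1 mouse with AT2 cells and none with mesenchymal cells. All 8 further markers of each gate (such as Abca3 and Lamp3 for AT2 cells) were found in that class in every compared mouse. The 2 day 7 LPS groups also differed in sex, since Xist marked all 3 β1 fl/fl mice and Y-linked genes all 3 β1 AT2-KO mice, so sex and genotype cannot be told apart at day 7. At day 21, mouse 1 of the β1 fl/fl group held 55 cells with Xist alone and 101 with Y-linked transcripts alone among 389 cells, so its hashtag covered cells of more than 1 mouse. The other day 21 β1 fl/fl mice were female by these genes, with 1 and 2 cells of the other kind. The day 21 β1 AT2-KO mice were mainly female (mouse 1) or male (mice 2 and 3) but held 19, 41 and 21 cells of the other kind, and the PBS mice, in the same order, 21, 33 and 32. Sex was therefore also unbalanced between the genotypes at day 21 and between LPS and PBS, and its part was not tested. Of the mesenchymal cells, 11.7% to 53.4% carried a single hashtag and so could be given to a mouse, against 53.1% to 78.6% of all cells. Any pair of libraries shared 0.492% to 1.69% of cell barcodes.

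Itgb1 itself was lower in knockout AT2 cells but not absent. At day 21 its AT2 level was 346, 309 and 378 CPM in the β1 fl/fl mice and 142, 182 and 145 CPM in the β1 AT2-KO mice, a log2 difference of -1.29 (SE 0.12, adjusted p = 2.46e-07, edgeR). At day 7 it was 259, 234 and 305 against 205, 151 and 191 CPM, with no overlap, and the log2 difference of -0.65 (SE 0.17) missed the threshold (adjusted p = 0.0657, edgeR). The 5′ chemistry need not read the deleted exon, so these reads check the labels in part only.

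The 300-base windows around RefSeq starts were searched for motifs in the 250 bases upstream of the start. Sequences were given for 10 starts of 8 of the genes (2 each for Il33 and Il1r1), and no entry was given for Cfb. The search covered both strands for the C/EBP consensus TTNNGNAA, the STAT palindrome TTCNNNGAA and the κB consensus, and found C/EBP matches at 9 of the 10 starts, κB matches at 2 (Chil1 and the second Il1r1 start) and STAT matches at 0. Over all 32851 windows of that length, 36.8% held a C/EBP match, 7.25% a κB match and 7.02% a STAT match. Printed here are the upstream sequences of the 3 genes that were higher in knockout AT2 cells at day 21 (Lcn2, Lrg1 and Il33) and of Saa3, which was found after LPS and not after PBS. They run 5′ to 3′ on the gene's strand and end at the base before the start (RefSeq, GRCm38.p6), and capitals mark C/EBP matches, a description of letters and not of factor binding. The windows are chr2:32387740-32387989 (minus strand) for Lcn2, chr17:56121947-56122196 (minus) for Lrg1, chr19:29924863-29925112 (plus) and chr19:29945540-29945789 (plus) for Il33, and chr7:46715677-46715926 (minus) for Saa3.
Lcn2: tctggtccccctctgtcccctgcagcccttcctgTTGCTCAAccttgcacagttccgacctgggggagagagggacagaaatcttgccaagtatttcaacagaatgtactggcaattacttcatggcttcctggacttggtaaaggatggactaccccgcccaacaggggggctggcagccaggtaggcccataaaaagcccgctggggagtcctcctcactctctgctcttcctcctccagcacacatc
Lrg1: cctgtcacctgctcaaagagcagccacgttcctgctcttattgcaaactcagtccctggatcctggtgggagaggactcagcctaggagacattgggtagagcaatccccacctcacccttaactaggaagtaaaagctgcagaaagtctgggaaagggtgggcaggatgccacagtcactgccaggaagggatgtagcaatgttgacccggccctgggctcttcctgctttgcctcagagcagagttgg
Il33 first start: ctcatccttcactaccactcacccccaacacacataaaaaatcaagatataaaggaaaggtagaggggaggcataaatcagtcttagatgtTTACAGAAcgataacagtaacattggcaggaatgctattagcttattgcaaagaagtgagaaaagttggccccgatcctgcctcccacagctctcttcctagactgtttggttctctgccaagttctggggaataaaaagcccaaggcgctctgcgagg
Il33 second start: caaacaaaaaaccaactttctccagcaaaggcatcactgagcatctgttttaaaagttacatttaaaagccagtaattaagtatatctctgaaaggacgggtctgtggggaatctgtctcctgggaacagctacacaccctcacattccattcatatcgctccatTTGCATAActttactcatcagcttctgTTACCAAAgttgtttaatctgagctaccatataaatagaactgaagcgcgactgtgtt
Saa3: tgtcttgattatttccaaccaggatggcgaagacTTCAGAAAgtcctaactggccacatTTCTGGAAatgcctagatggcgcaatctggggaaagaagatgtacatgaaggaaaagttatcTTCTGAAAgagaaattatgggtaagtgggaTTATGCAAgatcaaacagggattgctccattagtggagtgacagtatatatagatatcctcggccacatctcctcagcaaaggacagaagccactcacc

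Saa3 held 4 C/EBP matches, the Il33 starts 1 and 2, Lcn2 1 and Lrg1 0. In the GENCODE annotation (GRCm38), all 9 are protein-coding genes. Lcn2 lies at chr2:32384633-32388252 (minus strand), Lrg1 at chr17:56119678-56122001 (minus), Saa3 at chr7:46711998-46715700 (minus), Il33 at chr19:29925114-29960718 (plus), C3 at chr17:57203970-57228136 (minus), Cfb at chr17:34856374-34862518 (minus), Chil1 at chr1:134182176-134190181 (plus), Slpi at chr2:164354070-164389095 (minus) and Il1r1 at chr1:40225080-40317257 (plus). Cfb overlaps the protein-coding model Gm20547 on its own strand, so its counts are uncertain, and Saa3 has closely related paralogs with which reads may be shared.

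The genes divided by cell class. Chil1, Lcn2, Lrg1, Il33 and Slpi had their highest level of the 3 classes in AT2 cells in all 5 libraries, and C3, Cfb and Il1r1 in mesenchymal cells in all 5. The library level of Chil1 was 3836 to 5827 CPM in AT2 cells, 8.50 to 267 CPM in endothelial cells and 0 to 170 CPM in mesenchymal cells. C3 was at 108 to 156 CPM in AT2 cells, 3.57 to 22.3 CPM in endothelial cells and 1076 to 2613 CPM in mesenchymal cells. Il1r1, the receptor, was at 7.79 to 31.0 CPM in AT2, 25.6 to 36.3 CPM in endothelial and 110 to 146 CPM in mesenchymal cells. Il33 was shared between compartments, with 323 to 1116 CPM in AT2 cells and 88.3 to 162 CPM in mesenchymal cells. Saa3 reached 191 CPM and 162 CPM in mesenchymal cells of the day 7 LPS libraries, and at most 9.92 CPM in these classes of the other 3 libraries. Levels are compared within a gene only, since CPM are not adjusted for length.

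Knockout AT2 cells held more Lcn2, Lrg1 and Il33 than control AT2 cells 21 days after LPS. Of the 9 genes, 7 passed the filter on low counts, and 3 of these 7 were higher and 0 lower, where 1.51% of all 8802 genes tested were higher and 2.58% lower. Their log2 differences are on the scale of edgeR's fit, knockout minus control. The median of the 7 was 0.55 and that of all genes 0.0063. The genes were chosen with earlier results of these data known, so here and below such contrasts with all genes are descriptions only.

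Lcn2, the siderophore-binding protein, was at 1472, 1438 and 1722 CPM in the β1 fl/fl mice and 3671, 2144 and 2839 CPM in the β1 AT2-KO mice at day 21. All knockout mice lay above all control mice, and the log2 difference was 0.77 (SE 0.14, adjusted p = 0.000996, edgeR). Lrg1 was at 683, 770 and 843 CPM against 1388, 1275 and 1350 CPM, again with no overlap and with little spread within either genotype. Its log2 difference was 0.67 (SE 0.10, adjusted p = 0.000229, edgeR). Il33, the alarmin, was at 567, 315 and 630 CPM against 1079, 1012 and 1205 CPM. The groups did not overlap, and the log2 difference was 0.96 (SE 0.14, adjusted p = 0.000192, edgeR). Without the β1 fl/fl mouse whose hashtag held both sexes, the differences were 0.75, 0.61 and 1.04, all past the threshold.

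The other secreted proteins did not pass the test in day 21 AT2 cells. The protease inhibitor Slpi was at 53.3, 93.6 and 107 CPM in β1 fl/fl and 181, 117 and 123 CPM in β1 AT2-KO mice, a log2 difference of 0.55 (95% interval 0.13 to 0.97, adjusted p = 0.150, edgeR) with groups that did not overlap. Chil1 was at 4737, 4469 and 4840 CPM against 6607, 4539 and 5947 CPM, with overlapping groups and a log2 difference of 0.15 (-0.09 to 0.39, adjusted p = 0.564, edgeR). C3 was at 65.4, 122 and 116 CPM against 161, 109 and 148 CPM, and these overlapped too (0.32, -0.06 to 0.70, adjusted p = 0.411, edgeR). Il1r1 lay between 12.5 and 21.5 CPM in all 6 mice (0.21, -0.42 to 0.85, adjusted p = 0.809, edgeR). Cfb, at 0 to 2.42 CPM against 3.13 to 10.2 CPM, was below the filter, and Saa3 was at 0 in all 6.

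**Figure D1:**
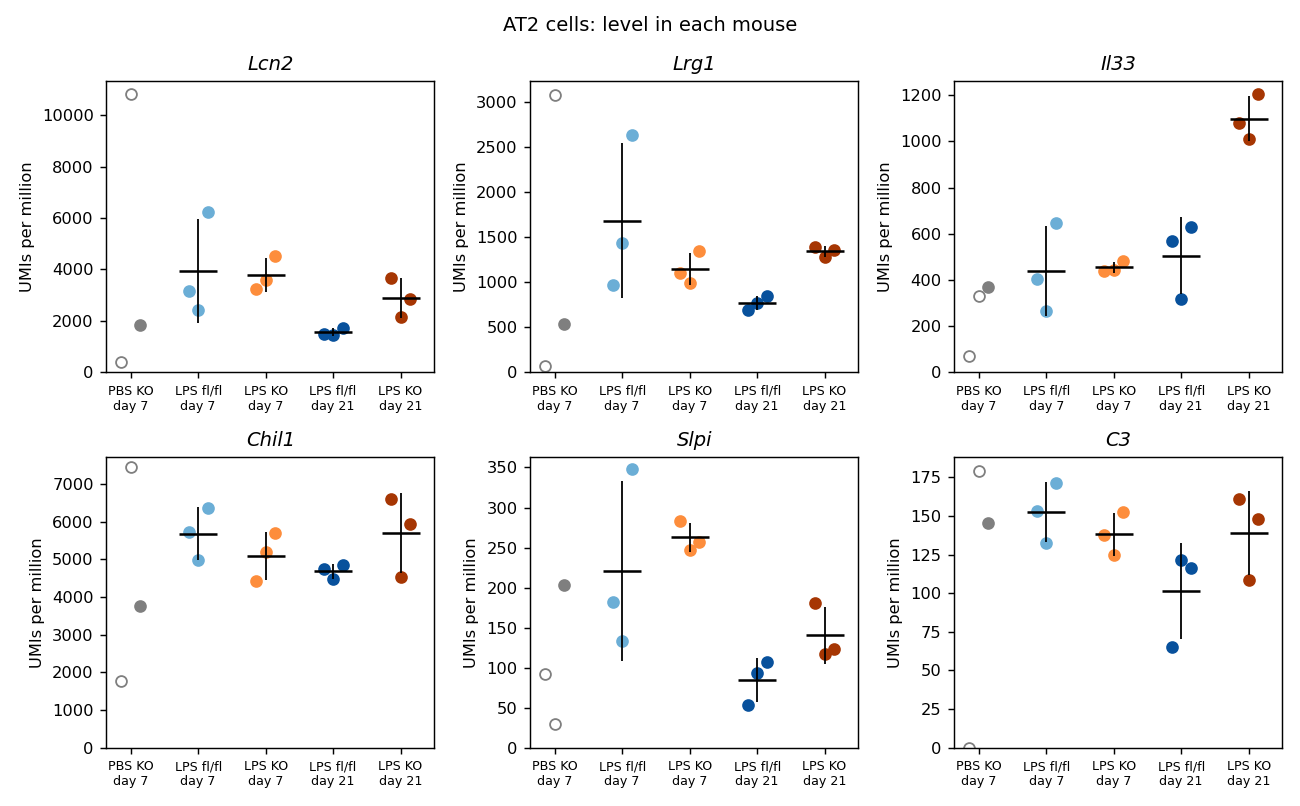
Levels of Lcn2, Lrg1, Il33, Chil1, Slpi and C3 in AT2 cells, as UMIs per 1000000 (CPM) on the vertical axis, by mouse and condition. Filled points are mice with at least 10 AT2 cells, open points are PBS mice 1 and 2 with fewer, and bars give the mean and SD of the filled points. At day 21 the knockout mice lie above the control mice for Lcn2 (2144 to 3671 against 1438 to 1722 CPM), Lrg1 and Il33, and the day 7 groups overlap for all 3.

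Markers of other cell states also differed between the same day 21 mice. The summed level of 7 genes of Krt8-positive intermediates was 852 to 1279 CPM in β1 fl/fl and 1700 to 1960 CPM in β1 AT2-KO AT2 cells, without overlap. By library, Areg (345 against 662 CPM), Krt18, Hbegf, Sfn and Krt8 (148 against 223 CPM) were higher in the knockout, while Krt19 (73.6 against 45.8 CPM) and Cldn4 (14.0 against 12.5 CPM) were lower. The summed level of 10 immune markers was 1665 to 2884 CPM in β1 fl/fl and 551 to 931 CPM in β1 AT2-KO mice, and nearly all of it was Lyz1 (1878 and 685 CPM by library). Ptprc, Cd3e, Itgam, Ly6g, Marco and Nkg7 were at 0 in both libraries and Cd68 at 9.85 and 7.90 CPM. The AT1 list overlapped (1744 to 1884 against 1720 to 1943 CPM), as did the club-like list of 5 genes (115 to 179 against 163 to 486 CPM). The part of these lists in the differences was not tested.

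The difference at day 21 was also seen in the share of AT2 cells with the RNA. With every cell thinned to 2000 UMIs, Il33 was found in 56.0% of 175 β1 fl/fl cells (95% interval 48.3% to 63.5%, exact binomial, counting error only) and 71.8% of 1234 β1 AT2-KO cells (69.2% to 74.3%). At the same depth it was found in 1.31% and 8.01% of endothelial cells, which gives the level that free RNA and low expression reach together. Lrg1 was found in 45.7% and 62.5% of thinned AT2 cells, and Lcn2 in 73.7% and 85.4%. Among thinned endothelial cells Lrg1 was found in 9.90% and 16.5% and Lcn2 in 2.77% and 24.3%. The part of free RNA in the AT2 shares was not tested. Unthinned, the AT2 shares were 88.1% and 93.1% for Il33, 73.9% and 83.3% for Lrg1 and 94.9% and 96.8% for Lcn2. Thinning left out 1 and 6 AT2 cells. Cells are not replicates, and these shares carry no test.

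At day 7, no gene of the 9 passed the test in AT2 cells. edgeR called 0 of the 7 tested, where 1.45% of all genes were called in either direction, and DESeq2, run without its filter on mean count, called 0. Lrg1 alone had an unadjusted p under 0.05, and it pointed the other way from day 21. It was at 968, 1434 and 2633 CPM in β1 fl/fl mice and 1099, 989 and 1342 CPM in β1 AT2-KO mice, a log2 difference of -0.60 (SE 0.23, adjusted p = 0.266, edgeR). Without β1 fl/fl mouse 1 it was -0.89 (adjusted p = 0.0396, edgeR). The highest of these values came from β1 fl/fl mouse 3, whose 17 AT2 cells also held the highest Lcn2. Lcn2 was at 3146, 2426 and 6227 CPM against 3221, 3591 and 4526 CPM, with a log2 difference of -0.11 (95% interval -0.56 to 0.35). Il33 was at 403, 265 and 647 CPM against 437, 441 and 482 CPM (-0.03, -0.43 to 0.38).

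The change of the genotype difference between the days was tested itself. Of 7 genes tested, 1 had a larger knockout-minus-control difference at day 21 than at day 7, where 0.376% of all genes did. This was Lrg1, with a log2 difference of differences of 1.29 (SE 0.28, adjusted p = 0.0237, edgeR). Il33 (1.02, adjusted p = 0.0998) and Lcn2 (0.90, adjusted p = 0.219) missed the threshold in the same edgeR fit. The Lrg1 call held in 11 of 19 alternatives. It was lost without β1 fl/fl mouse 3 (0.84), β1 AT2-KO mouse 1 or β1 AT2-KO mouse 2 of day 7, and without any of the 3 β1 fl/fl mice or β1 AT2-KO mouse 3 of day 21, with adjusted p of 0.0532 to 0.0791 in edgeR. Without β1 fl/fl mouse 2 of day 7, Lcn2 (1.12, adjusted p = 0.0436) and Il33 (1.19, adjusted p = 0.0195) passed in edgeR. Day 21 lungs were enriched for EPCAM and run as separate libraries, so day, enrichment and library set cannot be told apart.

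**Figure D2:**
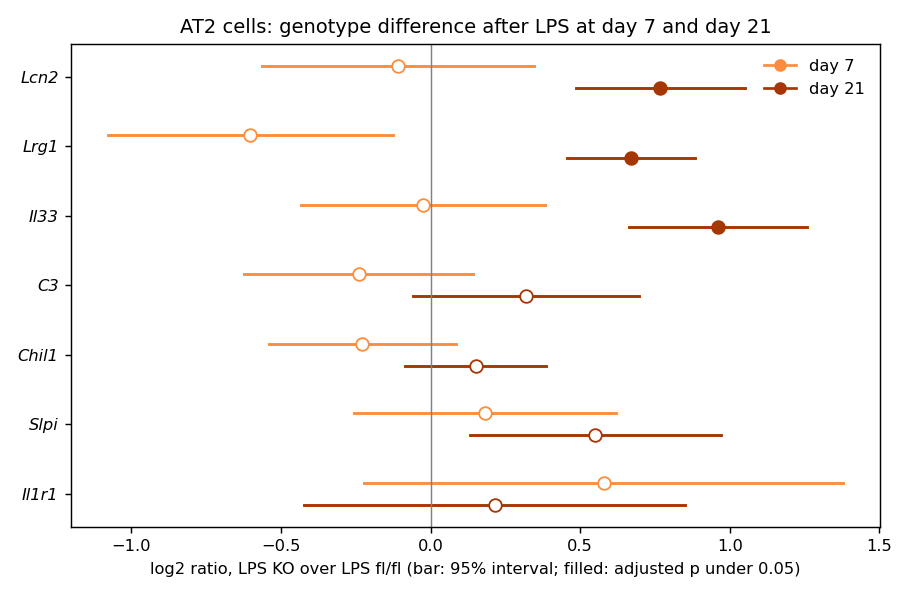
Log2 difference, β1 AT2-KO minus β1 fl/fl, in AT2 cells at day 7 and day 21 for the genes that passed the filter, with bars for the 95% intervals of the edgeR fit and filled points for an adjusted p under 0.05. At day 21 Lcn2 (0.77), Lrg1 (0.67) and Il33 (0.96) lie above 0, and at day 7 Lrg1 lies at -0.60.

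The effect of LPS on AT2 cells of the knockout could not be tested, because PBS mouse 3 alone had at least 10 AT2 cells. The 26 AT2 cells of the PBS library held 2784 CPM of Lcn2 (95% Poisson interval 2584 to 2996, counting error only), against 3420 CPM (3353 to 3489) in the 355 AT2 cells 7 days after LPS. PBS mouse 3, with 11 cells, was at 1834 CPM, while mouse 2, with 2 cells, was at 10817 CPM, and the 3 highest of the 26 cells held 59.7% of the Lcn2 UMIs. Lrg1 was at 845 CPM (736 to 965) after PBS and 1115 CPM (1076 to 1154) after LPS, and Il33 at 323 CPM (257 to 401) and 514 CPM (488 to 541). Chil1 was at 3836 CPM (3600 to 4083) and 5062 CPM (4979 to 5145). RNA of Lcn2, Lrg1, Il33 and Chil1 was thus present in knockout AT2 cells without LPS.

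AT2 cells differed in their counts of these genes. In the 4 LPS libraries, the 10% of AT2 cells with most of a gene held 41.4% to 47.0% of the Lcn2 UMIs and 24.7% to 35.1% of those of Chil1. For Sftpc, the gene of the gate, this share was 18.9% to 24.2%. Cells were ranked here by UMIs that were not thinned, and the part of depth in these shares was not tested. Across cells of a library, Lcn2 and Lrg1 ranked together with a Spearman rho of 0.404 to 0.572 over 5 libraries, as cells thinned to the same depth, while Il33 and Lcn2 had a rho of 0.0515 to 0.238. These correlations are across cells that share a library and an AT2 gate, and are given as a description. Over the 15 library and class sums, the genes most like Lcn2 were Wfdc2 and Lamp3 (Pearson r = 0.986 for each, on log2(CPM + 10)), those most like Chil1 were Sftpa1 and Cxcl15 (0.998 each), and those most like Lrg1 were Acsl5 (0.987) and Rab27a (0.983). The nearest genes to C3 were Col6a1 and Col4a5 (0.993 each), to Cfb Pdgfrl (0.991) and Kdelr3 (0.988), to Saa3 Grem1 (0.967) and Sfrp2 (0.910), to Il1r1 Lamc1 (0.988) and Serping1 (0.984), to Il33 Kiz (0.970) and Sort1 (0.968) and to Slpi Gsta4 (0.936) and Matn4 (0.934).

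In the mesenchyme, the complement genes were higher in adventitial than in alveolar fibroblast-like cells in every library. Cells were assigned to sub-types by marker lists that hold none of the 9 genes. C3 in adventitial fibroblast-like cells, a type found around vessels and airways, was at 1968 CPM (95% Poisson interval 1719 to 2244) in 26 cells after PBS. It was at 4126 CPM and 4665 CPM in the β1 fl/fl and β1 AT2-KO libraries 7 days after LPS, and 3653 CPM and 4874 CPM in those at day 21. Alveolar fibroblast-like cells held 814 to 1540 CPM, and pericyte-like cells 0 to 116 CPM. Adventitial fibroblast-like cells carried 80.6% to 83.5% of the mesenchymal C3 UMIs of the 4 LPS libraries and 60.2% after PBS. Cfb followed the same order, with 149 to 405 CPM in adventitial and 33.8 to 85.9 CPM in alveolar fibroblast-like cells. Il33 was at 163 to 272 CPM in adventitial fibroblast-like cells and 5.94 to 82.2 CPM in alveolar ones. Il1r1 was more even, with 164 to 192 CPM in the former and 84.6 to 134 CPM in the latter.

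Saa3 was the gene that separated the day 7 LPS libraries from the others in the mesenchyme. It had 0 UMIs among 345886 in the mesenchymal cells after PBS, which allows up to 8.67 CPM at a floor of 3 counts, and 162 CPM (95% Poisson interval 148 to 177) in the knockout after LPS, at least 18.7-fold higher over the library. By mouse it was at 151, 495 and 244 CPM in β1 fl/fl and 121, 291 and 168 CPM in β1 AT2-KO mice at day 7, and the genotypes overlapped. At day 21 it was at 0 in all 3 β1 fl/fl mice and at 16.2, 0 and 47.0 CPM in the β1 AT2-KO mice. In the day 7 LPS libraries, 23 of 146 and 25 of 197 adventitial fibroblast-like cells held Saa3, at 352 and 231 CPM, and these cells carried 76.8% and 64.5% of the mesenchymal Saa3 UMIs. Smooth muscle and myofibroblast-like cells held 103 and 127 CPM, and pericyte-like cells 0. In the day 21 β1 AT2-KO library, 66.7% of the mesenchymal Saa3 UMIs came from 3 mesothelial-like cells. This share rests on very few UMIs, since Saa3 was at 9.92 CPM there and was found in 4 of 123 thinned mesenchymal cells. No mouse had 10 mesenchymal cells after PBS, so this comparison rests on 1 library against 1 and has no test.

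**Figure D3:**
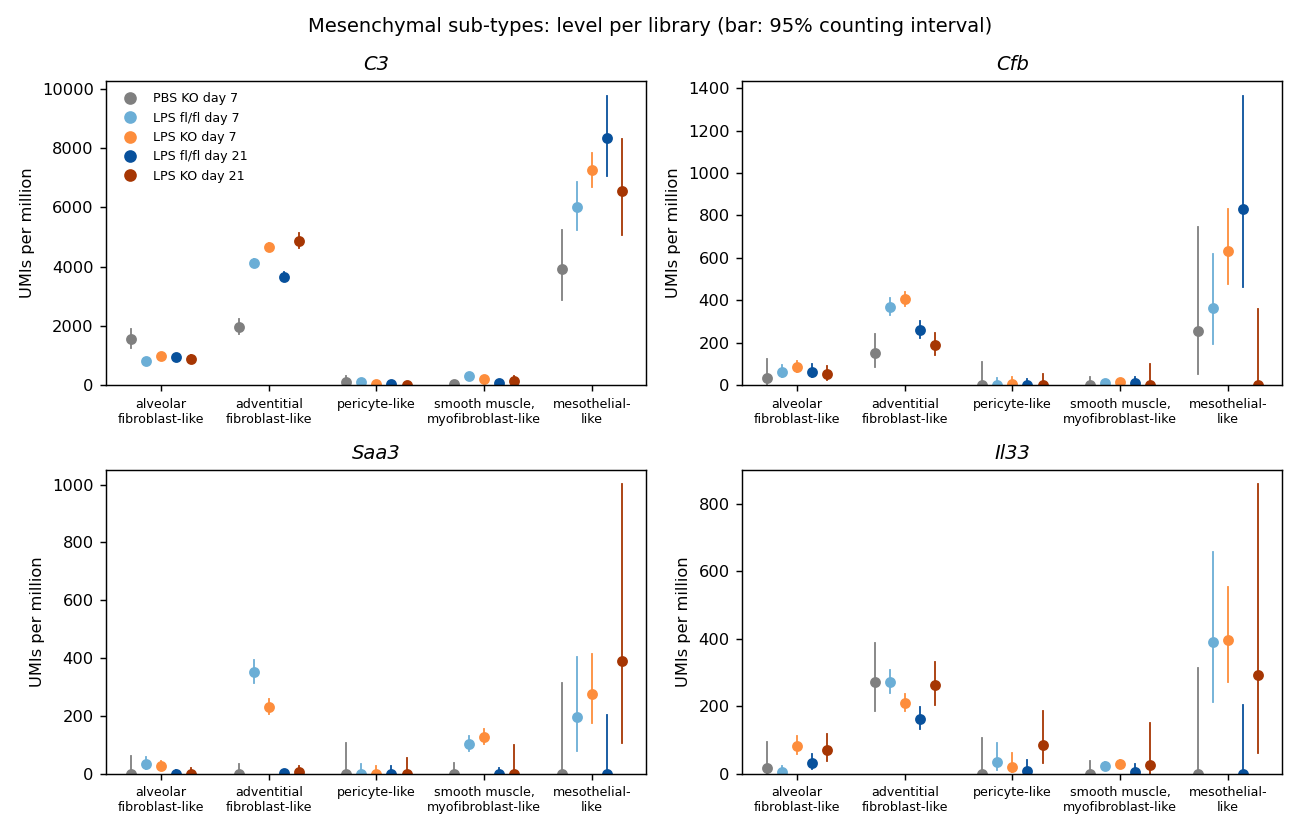
Library levels of C3, Cfb, Saa3 and Il33 in mesenchymal sub-types, as CPM on the vertical axis, for the 5 libraries, with 95% Poisson intervals that cover counting error only. C3 is highest in mesothelial-like and then adventitial fibroblast-like cells, and Saa3 is at 352 and 231 CPM in adventitial fibroblast-like cells of the day 7 LPS libraries and at 0 after PBS.

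Mesothelial-like cells, which cover the lung surface, were few (2 to 15 per library) but held much C3 and Slpi. C3 was at 3912 to 8333 CPM there. Slpi was at 2715 CPM (95% Poisson interval 2373 to 3092) in the 15 mesothelial-like cells of the β1 AT2-KO day 7 LPS library, with UMIs in 7 of them, and these cells carried 90.8% of its mesenchymal Slpi UMIs. By mouse, mesenchymal Slpi in that group was uneven, at 754, 49.2 and 12.0 CPM.

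The genotype did not move these genes past the threshold in the mesenchyme at day 7. edgeR called 0 of 7 tested, where 0.152% of all genes were called, DESeq2 without its filter on mean count called 0, and none of the 7 had an unadjusted p under 0.05. C3 was at 3490, 3439 and 1144 CPM in β1 fl/fl and 4509, 2517 and 2624 CPM in β1 AT2-KO mice (log2 difference 0.29, 95% interval -0.66 to 1.25). At day 21, 1 of 5 genes tested was higher and 0 lower, where 0.381% of all genes were higher and 0% lower, and this was Chil1. It was at 20.5, 24.8 and 6.52 CPM in β1 fl/fl and 129.5, 215 and 172 CPM in β1 AT2-KO mice, a log2 difference of 3.39 (SE 0.50, adjusted p = 0.0273, edgeR). Chil1 passed the filter on low counts only through the knockout mice, so it could come out only as higher. Sftpc, the AT2 marker, rose by 2.74 in the same cells (adjusted p = 0.00239, edgeR), and mesenchymal Chil1 over the 5 libraries was 0 to 0.933 times the level that AT2 RNA alone would bring, as worked out for endothelial cells. The Chil1 call was lost on leaving out any of the 6 mice (adjusted p 0.0532 to 0.500).

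Among endothelial cells, Lrg1 and Lcn2 had their highest levels in different vessels. Lrg1 was at 829, 562, 940, 270 and 1283 CPM in venous-like cells of the 5 libraries (β1 fl/fl, β1 AT2-KO and PBS at day 7, then β1 fl/fl and β1 AT2-KO at day 21). General capillary-like cells held 162, 187, 211, 73.1 and 97.8 CPM in the same order, below the venous-like cells in every library, although the day 21 libraries had only 21 and 9 venous-like cells. Lymphatic-like cells, in which Ccl21a was found in 100% and Mmrn1 in 90% to 100%, held 308 to 506 CPM of Lrg1.

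Lcn2 was at 200.5, 215, 1627, 864 and 680 CPM in lymphatic-like cells, in the same order of libraries. It was found in 48 of 131, 26 of 69, 4 of 8, 17 of 20 and 5 of 10 of them, against 6.26%, 11.9%, 0.616%, 3.01% and 26.4% of general capillary-like cells. The AT2 marker Sftpc was at 44.0 CPM in the 8 lymphatic-like cells after PBS, where Lcn2 was highest, a value below the floor of 3 counts. It was at 780 CPM in the general capillary-like cells of that library. Over the 5 libraries, Sftpc ranged from 44.0 to 15093 CPM in lymphatic-like and from 780 to 17538 CPM in general capillary-like cells. The part of AT2 RNA in the Lcn2 levels of lymphatic-like cells was not tested. In the PBS and β1 fl/fl day 21 libraries, lymphatic-like cells were 8 of 7976 and 20 of 1187 endothelial cells and carried 29.8% and 52.4% of the endothelial Lcn2 UMIs. Il1r1 went the other way, at 0 to 7.86 CPM in lymphatic-like cells against 20.6 to 28.8 CPM in general capillary-like cells.

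**Figure D4:**
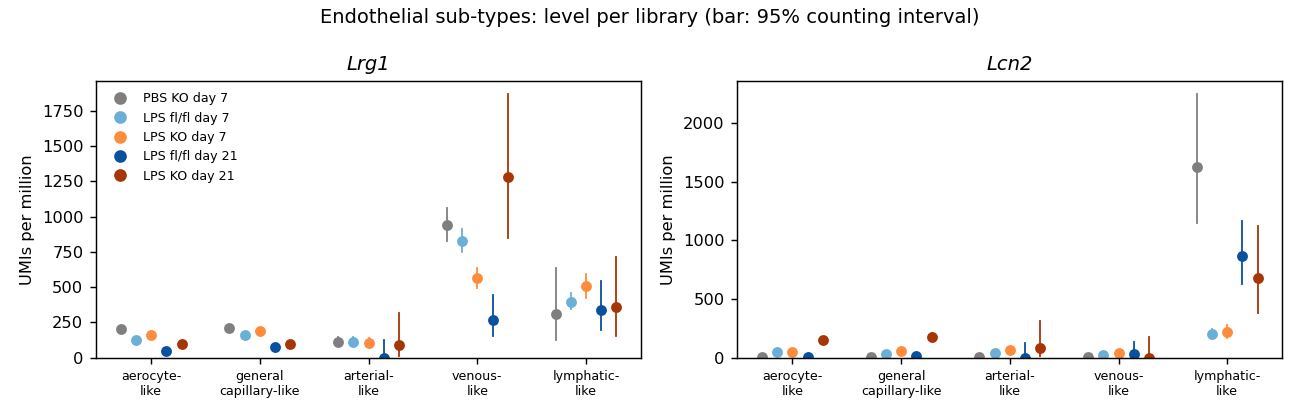
Library levels of Lrg1 and Lcn2 in endothelial sub-types, as CPM on the vertical axis, for the 5 libraries, with 95% Poisson intervals that cover counting error only. Lrg1 is highest in venous-like cells in 4 of the 5 libraries and Lcn2 in lymphatic-like cells in all 5 (200.5 to 1627 CPM).

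Between LPS and PBS in knockout endothelial cells at day 7, 6 of the 9 genes were higher and 0 lower, where 14.4% of all 11643 genes tested were higher and 12.2% lower. The median of the 9 log2 differences was 3.05, the value of Il33, and that of all genes 0.018. After PBS, Saa3 was at 0 CPM, Slpi at 0 to 0.80 CPM and Il33 at 1.36 to 1.80 CPM by mouse. These genes passed the filter on low counts only through the LPS mice. They could come out only as higher, so their calls and this median are no fair contrast with all genes. Lcn2 rose from 6.82, 3.00 and 6.21 CPM to 51.4, 69.3 and 48.6 CPM (log2 difference 3.28, SE 0.24, adjusted p = 2.14e-05, edgeR). Chil1 rose by 3.69, Il33 by 3.05, C3 by 2.40 and Slpi by 3.40, with adjusted p of 5.47e-05, 0.000108, 0.000385 and 0.0121 in the same edgeR fit. Saa3 was at 0 in all 3 PBS mice and at 3.81, 3.61 and 2.46 CPM after LPS, at least 24.4-fold higher over the library at a floor of 3 counts. Lrg1 was at 108, 371 and 182 CPM after PBS and 242, 144 and 182 CPM after LPS, and overlapped (log2 difference -0.31, 95% interval -1.12 to 0.51). Cfb (1.24, adjusted p = 0.0562) and Il1r1 (0.34, adjusted p = 0.0664) missed the threshold in edgeR. Cfb passed without LPS mouse 1 (1.55) or PBS mouse 3 (1.74), and Il1r1 without PBS mouse 2 (0.42).

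RNA of other classes moved with this comparison. Sftpc in the same endothelial cells rose by 2.68 (adjusted p = 0.00162, edgeR), and the 8 mesenchymal gate markers summed to 656 to 1060 CPM after PBS and 1529 to 1992 CPM after LPS. A level was worked out for each library that AT2 RNA alone would bring, as the endothelial Sftpc level times the ratio of the gene to Sftpc in AT2 cells. Over the 5 libraries, endothelial Chil1 was 0.645 to 1.04 times that level, Lcn2 0.721 to 1.37 times, Slpi 0.610 to 1.73 times and Il33 0.719 to 2.00 times. By contrast, C3 was 1.81 to 10.6 times, Lrg1 1.22 to 85.6 times, Cfb 6.62 to 123 times and Il1r1 21.4 to 1104 times the level that AT2 RNA would bring. After subtraction of that level, the mean Lcn2 level of the knockout mice was left at 0.587 CPM after LPS and -0.252 CPM after PBS. C3 was left at 15.2 and 2.85 CPM, with a log2 difference of 2.42. Endothelial Il33 was left at 5.88 and 0.944 CPM, with a log2 difference of 2.64. Mesenchymal RNA was not subtracted. In knockout mesenchymal cells at day 7, C3 was at 2558 CPM after LPS and 1076 CPM after PBS. Saa3 was at 162 and 0 CPM there. The part of mesenchymal RNA in the endothelial C3 and Saa3 levels was not tested.

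**Figure D5:**
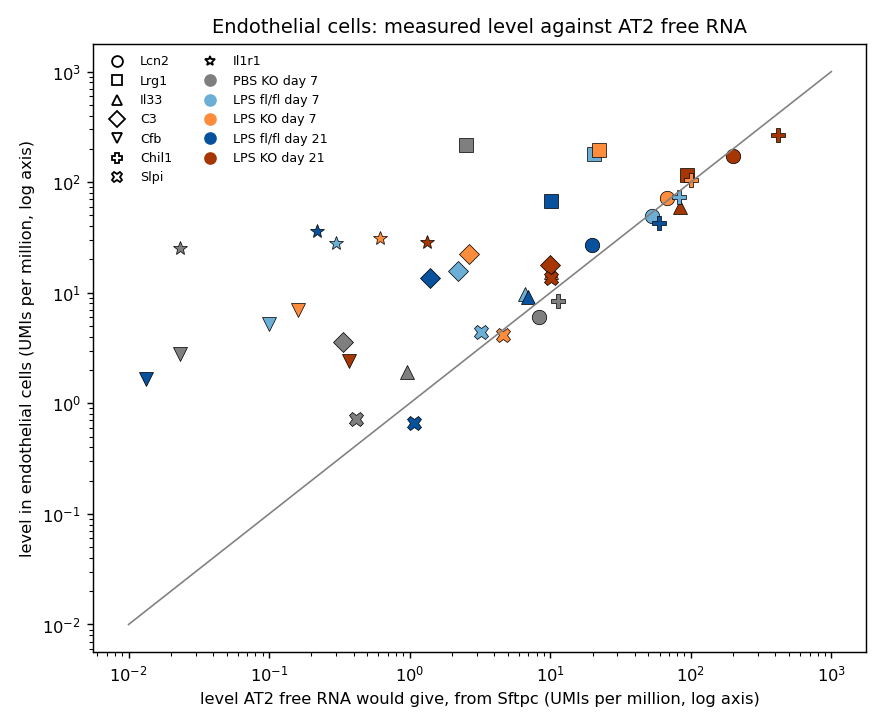
Endothelial level of each gene (vertical axis, CPM, log scale) against the level expected from AT2 RNA (horizontal axis, CPM, log scale), 1 point per gene and library, with a grey line of equality. Saa3 and points with a 0 on either axis are left out. Chil1 and Lcn2 lie along the line (0.645 to 1.37 times the expected level) and Il1r1 and Cfb lie above it.

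The genotype comparison in endothelial cells gave calls at day 21, and the change between the days was not tested there. At day 7, edgeR called 0 of 9 genes, where 2.03% of all genes were called, and DESeq2 without its filter on mean count called 0. Lcn2 (log2 difference 0.69, adjusted p = 0.103), Il33 (0.91, adjusted p = 0.0974) and Chil1 (0.74, adjusted p = 0.173) had an unadjusted p under 0.05 in edgeR. Chil1 passed without β1 fl/fl mouse 1 (1.14, adjusted p = 0.0262) and Il33 without β1 AT2-KO mouse 3 (1.08, adjusted p = 0.0478). At day 21, 3 of 5 genes tested were higher in the knockout and 0 lower, where 1.01% of all genes were higher and 0.96% lower. Among these, Il33 passed the filter on low counts only through the knockout mice, so it could come out only as higher. Lcn2 was at 16.0, 38.3 and 28.5 CPM in β1 fl/fl and 182, 160 and 178 CPM in β1 AT2-KO mice (2.66, SE 0.21, adjusted p = 3.08e-08, edgeR). Il33 was at 1.77, 3.83 and 7.43 against 47.1, 64.7 and 51.5 CPM (3.52, SE 0.39) and Chil1 at 30.2, 24.9 and 40.9 against 229, 223 and 259 CPM (2.86, SE 0.18). Sftpc rose by 2.64 (SE 0.09) in the same cells, and after subtraction of the level that AT2 RNA would bring, the knockout means of all 3 were below 0. Lrg1 was at 103, 65.1 and 49.6 against 94.2, 116 and 127 CPM and did not pass (0.72, adjusted p = 0.110, edgeR). Without the β1 fl/fl mouse whose hashtag held both sexes, Lrg1 was at 1.06 (adjusted p = 0.000819, edgeR). After the same subtraction Lrg1 was left at 64.4 CPM in β1 fl/fl and 23.8 CPM in β1 AT2-KO cells, the opposite direction. In that β1 AT2-KO library, endothelial Chil1, Il33 and Lcn2 were at 0.645, 0.719 and 0.865 times the level that AT2 RNA would bring. More of these genes was thus subtracted than was measured. Whether this also turned the Lrg1 direction was not tested. Il1r1 was at 30.6 to 37.3 against 25.7 to 47.1 CPM (-0.01, 95% interval -0.61 to 0.59). C3, Cfb, Slpi and Saa3 were below the filter.

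The genotype difference was smaller in AT2 than in endothelial cells at day 21 for 4 of 7 genes tested, where 1.43% of all genes were lower on that scale. The log2 difference of differences, with mouse as a block, was -1.98 for Lcn2, -2.60 for Il33, -2.76 for Chil1 and -4.03 for Slpi, and for Sftpc it was -2.94. All 4 genes and Sftpc passed the threshold in edgeR, with adjusted p from 2.95e-53 (Sftpc) to 0.000833 (Slpi). Endothelial Slpi was at 0, 0 and 1.24 CPM in the β1 fl/fl mice, so its fitted value depends on the smallest counts. Lrg1 differed by -0.07 (95% interval -0.49 to 0.36). At day 7, 2 of 8 genes were lower (Il33 at -0.87 and Chil1 at -0.97), where 0.765% of all genes were, and Sftpc was at -0.93 (adjusted p = 0.127, edgeR). DESeq2 called neither of these 2, and the edgeR calls held in 3 of 13 alternatives for Il33 and 6 of 13 for Chil1. They were lost without β1 fl/fl mouse 1, β1 fl/fl mouse 3, β1 AT2-KO mouse 1 or β1 AT2-KO mouse 2 for Il33 and without β1 fl/fl mouse 2, β1 AT2-KO mouse 1 or β1 AT2-KO mouse 2 for Chil1.

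The other genes of these pathways that passed the test in day 21 AT2 cells were mostly antimicrobial and chitinase-like. Of all genes, 1.51% were higher and 2.58% lower. Of 7 further acute phase genes tested, 1 was higher in the knockout, Itih4, an inter-alpha-trypsin inhibitor heavy chain (log2 difference 1.26, adjusted p = 0.000181, edgeR). Of 17 genes that signal to the acute phase, Osmr, the oncostatin M receptor, was higher (0.93, adjusted p = 0.00494, edgeR). None of 7 further alarmins and alarmin receptors, of 3 complement components or of 5 complement regulators passed edgeR's test. Among 12 antimicrobial and chitinase-like genes, 5 were lower and 1 higher. The lysozyme genes Lyz1 (-1.83) and Lyz2 (-0.67), the acidic chitinase gene Chia1 (-1.74), and Lgals3 (-1.14), which encodes galectin-3, were the lower genes with the smallest p. Higher in this list was Scgb3a1, a secretoglobin of airway secretory cells (6.81), and it is also in the club-like list, as Lyz1 is in the immune list. The medians of the 6 lists lay between -0.25 and 0.27, and that of all genes at 0.0063.

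At day 7, the further genes called in AT2 cells were Anxa1 (1.21), Ager (0.88) and Lgals3 (1.01), higher in the knockout, and Lyz2 (-0.64), lower, where 1.45% of all genes were called. These were 2 of 6 alarmins and alarmin receptors and 2 of 10 antimicrobial genes. Ager, a receptor, is also in the AT1 list. Of 6 acute phase genes, 15 signals, 2 complement components and 4 regulators, 0 were called. Lgals3 thus differed in direction between the days, and its difference of differences was -2.15 (adjusted p = 0.000507, edgeR). In endothelial cells at day 7, where 2.03% of all genes were called, C7, a terminal complement component (2.38), and Mt1, a metallothionein (0.74), were higher in the knockout. Clu, a complement inhibitor (-0.73), and the airway defence genes Bpifa1 (-1.48) and Reg3g (-1.77) were lower. The knockout library also held fewer airway cells, and the part of free airway RNA in the Bpifa1 and Reg3g values was not tested. Between LPS and PBS in knockout endothelial cells, where 14.4% of all genes were higher and 12.2% lower, 11 of 15 antimicrobial genes were higher, among them the AT2 products Sftpd (3.49) and Sftpa1 (2.89), as were 4 of 8 acute phase genes (Mt1 3.13, Hp 3.21, Mt2 2.64 and Cp 2.48). Of 7 complement components 4 were higher (C7 2.64, Colec12 1.85, C1s1 2.23 and Hc 3.11) and Masp1 was lower (-1.68), and of 17 genes that signal to the acute phase 1 was higher (Tnfaip3 0.83) and 2 lower (Nfkbiz -0.54 and Socs3 -0.54). Of 9 alarmins and receptors, 5 were higher (Anxa1 2.69, S100a11 0.86, Ager 2.14, Tslp 2.08 and Hmgb1 0.32), and of 7 complement regulators 4 were higher (among them Serping1 2.10 and Cd55 3.05) and 2 lower (Clu -0.77 and Cr1l -0.29).

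In day 21 endothelial cells, where 1.01% of all genes were higher in the knockout and 0.96% lower, 5 of 6 antimicrobial genes were higher (Sftpa1 2.54, Lyz2 1.97, Wfdc2 1.99, Sftpd 2.46 and Lyz1 1.43). The acute phase gene Hp (2.44), Ager (2.55), Hc (2.71) and Clu (0.59) were also higher, and Socs3, a feedback inhibitor of cytokine signalling, was lower (-0.76). Of the mesenchymal lists, none held a called gene at day 7, and at day 21 both antimicrobial genes tested were higher (Lyz2 2.45 and Sftpa1 2.57). Several of these genes, Sftpa1 and Sftpd among them, are AT2 products, and Sftpc rose in the same cells.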

How the data were processed

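Whole-lung single-cell libraries were deposited as raw UMI counts per gene and cell, with hashtag antibody counts in the same matrices. The authors made these counts with Cell Ranger 3.1 on the mm10 genome, and the submitters' processing notes also name Seurat 4.1.0. No correction for free RNA is contained in the counts. All other values were computed from them, and the genes and lists were chosen with earlier results of these data known.

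Barcodes were kept that had 700 genes or more and a mitochondrial share of UMIs from 0.1% to 15%. AT2 cells had Sftpc at 5% or more of UMIs, Epcam at least 1 UMI and no Cdh5, Pecam1 or Col1a2. Endothelial cells had at least 2 UMIs of Cdh5 and Pecam1 and none of Epcam or Col1a2, and mesenchymal cells at least 2 of Col1a2 and none of the others. Sub-types needed 3 UMIs of a marker list and more than of any other list. No doublet caller was run, and cells with more than 1 hashtag were left out of mouse values. Hashtags with 1% or more of a library's tag counts were taken as in use, and assignment to a mouse needed 4 times (alternatively 10 times) the tag's 25th percentile over cells. Counts were summed per mouse and class where at least 10 cells were present and tested in edgeR 4.0.16 (TMM, filterByExpr, quasi-likelihood test, Benjamini-Hochberg adjustment over all genes) in R 4.3.3. The mice compared in each class summed to 103051 to 3296916 UMIs in AT2, 318311 to 6159077 in endothelial and 61768 to 1254386 in mesenchymal cells. Intervals are 95% limits of the edgeR fit, or exact Poisson or binomial limits that cover counting error only, and the floor was 3 counts. The genes named beside the 9 were those of the pathway lists that passed the threshold (at most the 5 with the smallest p in a list and comparison), and the 2 genes with the highest Pearson r to each of the 9 over library and class sums. Alternatives were DESeq2 1.42.0 and its size factors, no filter on low counts, stricter gates, at least 1200 genes per cell, the stricter hashtag threshold, removal of AT2 free RNA and leaving out each mouse. An adjusted p that DESeq2 did not give was left missing. The tests were checked on simulated counts. Other steps used Python 3.11.15 with numpy 2.4.6, scipy 1.17.1, pandas 2.3.3 and matplotlib 3.10.9.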

Additional observations from a re-analysis of the deposited data

Results flagged for a closer look

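The knockout-minus-control difference was smaller in AT2 than in endothelial cells at day 21 for Lcn2 (log2 difference of differences -1.98), Il33 (-2.60), Chil1 (-2.76) and Slpi (-4.03), and at day 7 for Il33 (-0.87) and Chil1 (-0.97), each by a test of the difference itself. In the same fits Sftpc was at -2.94 and -0.93, and the part of AT2 RNA among endothelial cells in these values was not tested. The Slpi value rests on β1 fl/fl endothelial cells at 0, 0 and 1.24 CPM and was lost in DESeq2 without its filter on mean count (adjusted p = 0.116). DESeq2 called neither Il33 nor Chil1 at day 7. Their edgeR calls held in 3 of 13 alternatives for Il33 and 6 of 13 for Chil1.

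The genotype difference of Lrg1 in AT2 cells was larger at day 21 than at day 7 by 1.29 on the log2 scale, also by a test of the difference. The call held in 11 of 19 alternatives, and day, enrichment and library set cannot be told apart.

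Saa3 was found in airway cells, which entered no comparison. It was at 817 CPM (95% Poisson interval 710 to 936) in 16 club-like cells and at 225 CPM (190 to 264) in 72 ciliated-like cells of the β1 fl/fl day 7 LPS library. In the β1 AT2-KO day 7 LPS library it was at 444 CPM in 5 club-like cells and at 0 in 10 ciliated-like cells, and after PBS it was at 0 in 9 ciliated-like cells, with no club-like cell.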

How the results depend on the processing

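No paired analysis was possible because hashtag numbers only name mice and each condition is a single library, which holds for every comparison between conditions. The fits of AT2 against endothelial cells kept mouse as a block. The interaction alternatives and DESeq2 without its filter on mean count were chosen after seeing the data. Lcn2, Lrg1 and Il33 in day 21 AT2 cells passed the threshold in 13 of 13 alternatives each (0.55 to 1.04, 0.61 to 0.74 and 0.76 to 1.15), and no value past the threshold changed sign. Of the log2 ratios over all settings, 18 passed the threshold newly, 32 lost it, and 58 changed sign, 0 of them past the threshold in either setting. Removal of AT2 free RNA left 12 of 35 ratios without a value, among them Lcn2, Il33 and Chil1 in day 21 endothelial cells, and moved 3: day 21 endothelial Lrg1 from 0.72 to -1.44, day 7 mesenchymal Lcn2 to -1.58 and endothelial Il33 after LPS to 2.64. In day 21 knockout endothelial cells this removal took away more Lcn2, Il33 and Chil1 than was measured, so the Lrg1 value is uncertain. The cause of the changes given here was not tested.

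With DESeq2, and then without its filter on mean count, the genes called were 45 and 35 in day 7 AT2 cells (91 in edgeR), 82 and 78 in day 21 endothelial cells (146), 14 and 14 in day 7 mesenchymal cells (9), 28 and 21 for AT2 against endothelial cells at day 7 (149) and 67 and 50 at day 21 (211). Of the 9 genes, DESeq2 without that filter called 0 in the day 7 interaction (2 in edgeR). With no filter on low counts, the genes called were 157 in day 7 AT2, 400 in day 7 endothelial (1 of the 9, against 0), 316 in day 21 endothelial (5, against 3), 190 in day 7 mesenchymal (1, against 0) and 52 in day 21 mesenchymal cells (2, against 1), and 96 for the change between days (3, against 1), and the day 7 interaction held 1 of the 9. With the stricter hashtag threshold, they were 45 in day 7 AT2 cells, 4 in day 7 mesenchymal cells, 94 and 130 in the day 7 and day 21 interactions, and 0 of the 9 in the day 7 interaction and in the change between days, and day 21 mesenchymal cells could not be fitted. With stricter gates, day 21 mesenchymal cells had 2 genes called and 0 of the 9, and the day 7 interaction 0 of the 9. With at least 1200 genes per cell, 79 genes were called in day 21 endothelial and 3 in day 21 mesenchymal cells (0 of the 9), and the day 7 interaction held 1 of the 9.

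Leaving out each mouse gave 45 to 121 genes and 0 to 1 of the 9 in day 7 AT2 cells, 215 to 347 and 3 in day 21 AT2 cells (360 with all mice), 59 to 309 and 0 to 1 in day 7 endothelial cells, 2251 to 3129 and 6 to 7 for LPS (3090), 51 to 212 and 3 to 4 in day 21 endothelial cells, 4 to 24 and 0 in day 7 mesenchymal cells, 0 to 6 and 0 in day 21 mesenchymal cells, 74 to 144 and 0 to 2 for the day 7 interaction, 145 to 204 and 4 for the day 21 interaction, and 17 to 58 and 0 to 3 for the change between days. Without day 7 β1 fl/fl mouse 1, Lrg1 in day 7 AT2 cells was at -0.89 (adjusted p = 0.0396, edgeR).

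The 11 AT2 cells of the single usable PBS mouse and the small mesenchymal sums limit what could be detected, and values that missed the threshold there may hide differences.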
